A study of Drosophila melanogaster with 39 samples.

Results

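The comparison set 8 shocked against 7 naive single-head libraries of the Mid class of place preference, which were 15 of the 37 libraries of the series with a column of counts. The libraries were chosen by their titles, and every shocked Mid and naive Mid title was used. All 15 heads were those of adult *Drosophila melanogaster* males, of a Cantonized w1118 genotype, a strain that lacks the eye pigment transporter encoded by *white*, and each library was made from 1 fly. The protocol text describes shocks of 60 V for 5 min, a preference assay at 1.5 h and freezing at 2.5 h, and it is the same for naive and shocked samples, so the treatment was read from the titles. Neither what the naive flies received in place of shocks nor how the Mid class was bounded is stated in the labels. Where the class was set by an assay after the shock, an effect of shock cannot be told apart from a difference in which flies reached the Mid class. The naive High, shocked High and shocked Low libraries shared the genotype, sex and tissue, and were used for the estimate of the spread and for the levels given at the end.

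A fly head holds the brain and the eyes together with antennae, mouthparts, glia, muscle and a sheet of fat body, the insect organ that joins liver-like metabolism, fat storage and humoral immunity. Folate-dependent one-carbon metabolism takes single carbons from serine and glycine and passes them to purine, thymidylate and methionine synthesis. Its mitochondrial branch is tied to respiration, and in *Drosophila* several of its genes are known targets of crc, the fly ATF4, which is translated when the integrated stress response is active.

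The 15 libraries held between 6.10 and 10.3 megacounts (M) each, with between 11570 and 12120 genes detected in each. The defining markers of a head were present: *elav*, an RNA-binding protein of neurons, lay between 125 and 184 counts per M of the TMM-scaled library size (CPM), the rhodopsin *ninaE* between 28700 and 48900 CPM, and the male-specific RNA *roX1* between 1470 and 1980 CPM. Among the genes chosen as fat body markers was the lipoprotein gene *Rfabg* (*apolpp*). It lay between 650 and 3300 CPM in naive and between 1730 and 6210 CPM in shocked heads. *Lsp2* varied more widely, between 3.74 and 979 CPM in naive and between 75.3 and 2370 CPM in shocked heads. *Fbp1* and *Cyp4g1* stayed under 1 CPM in each library and were not tested. In these bulk samples, fewer cells of a type and less RNA per cell cannot be told apart. The mRNAs of the mitochondrial genome took 2.02% to 2.63% of counts in naive and 2.56% to 3.27% in shocked heads. The genes of cytosolic ribosomal proteins took 5.46% to 6.79% in naive and 6.35% to 7.32% in shocked heads.

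Across 10272 tested genes, 2 rose in shocked heads and none fell at an adjusted p under 0.05, which is 0.0195% of the genes (quasi-likelihood test of edgeR, Benjamini-Hochberg adjusted). Both encode enzymes of amino acid and one-carbon metabolism. DESeq2 called 21 genes, 19 higher and 2 lower, on the same libraries, and limma voom called 2. Without adjustment, 1342 genes (13.1%) had a p under 0.05, of which 716 (6.97%) were higher and 626 (6.09%) lower in shocked heads. Those shares are the background for each gene list below, and "rose" or "fell" is kept for genes that passed the adjusted threshold. The median log2 fold change over all tested genes was 0.012, and 52.6% of them were above 0. List medians within 0.1 of 0 are given as values with no direction, since each of them except that of the hormone response list changed sign or moved by over 1.5 times when some single library was left out. The typical standard error (SE) of a log2 fold change was 0.128 (median).

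*Nmdmc* encodes the mitochondrial methylenetetrahydrofolate dehydrogenase and cyclohydrolase, which interconverts carriers of single carbons, and lies on chromosome arm 3R of dm6 at 9042508 to 9050555, on the minus strand. In naive heads it lay at 18.5, 17, 26.6, 38.2, 13.5, 27.9 and 48.9 CPM in replicates 1 to 7. In shocked heads it lay at 46.3, 45.6, 72.7, 126, 167, 213, 45.7 and 50.7 CPM in replicates 1 to 8. The 3 highest values were those of shocked replicates 4, 5 and 6, and the groups overlapped only because naive replicate 7 lay above shocked replicates 1, 2 and 7. *Nmdmc* rose 3.52-fold (log2 fold change 1.81, SE 0.32, adjusted p = 0.0216, edgeR), with 8 of 8 shocked heads above the naive mean.

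*asparagine-synthetase* (current symbol *AsnS*) encodes the enzyme that makes asparagine from aspartate and glutamine, and lies on 3L at 21173118 to 21174973, on the plus strand. Its naive values were 57.5, 65.4, 66.5, 87.8, 71.3, 73.9 and 67.9 CPM. Its shocked values were 111, 124, 114, 130, 129, 123, 106 and 99.4 CPM. The groups did not overlap, and the shocked heads lay in a narrow band in which no single library stood out. The gene rose 1.67-fold (log2 fold change 0.74, SE 0.14, adjusted p = 0.0222, edgeR).

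Both calls were lost when any 1 of naive replicates 1, 2 and 3 or shocked replicates 4, 5 and 6 was left out, with adjusted p between 0.00675 and 0.099 for *Nmdmc* and between 0.0132 and 0.099 for *asparagine-synthetase* over the 15 omissions. In a fit of the 15 Mid libraries alone, which called 14 of 9841 genes (0.142%), *asparagine-synthetase* passed and *Nmdmc* did not (adjusted p = 0.061). With shocked replicates 5 and 6 left out together, an alternative chosen after seeing the data, the log2 fold changes were 1.25 for *Nmdmc* and 0.70 for *asparagine-synthetase*, each with an adjusted p of 0.302.

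**Figure D1:**
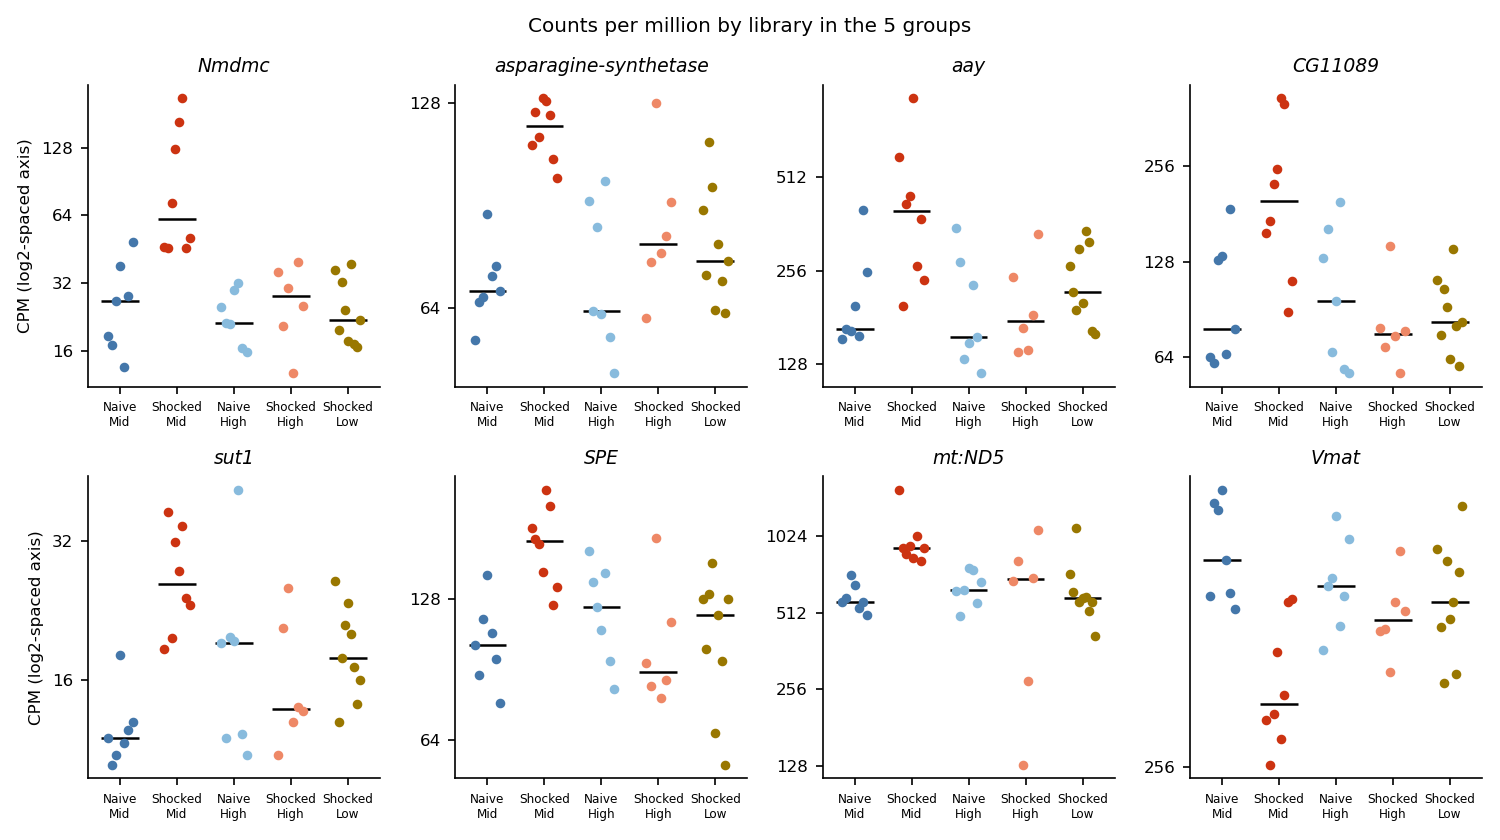
CPM on a log2-spaced axis of 8 genes in the 37 libraries, by group; each point is 1 head and each line a group median. The 8 shocked Mid values of *asparagine-synthetase* lie between 99.4 and 130 CPM, above the 7 naive Mid values of 57.5 to 87.8 CPM, while those of *Nmdmc* spread from 45.6 to 213 CPM.

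The one-carbon and serine list held 17 genes, each of which was tested, and 14 of them were higher in shocked heads. The median log2 fold change was 0.58, 8 members had an unadjusted p under 0.05, all of them higher, and 1, *Nmdmc*, passed over all genes. The 3 enzymes that build serine from a glycolytic intermediate were among the 8. *aay*, the phosphoserine phosphatase that makes serine itself, lay at a lowest, median and highest of 154, 166 and 401 CPM in naive heads. In shocked heads it lay at 197, 398 and 920 CPM. The groups overlapped through naive replicates 4, 6 and 7, and *aay* did not pass (log2 fold change 1.02, SE 0.28, adjusted p = 0.18, edgeR).

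The other members are named after their values were seen. *CG6287*, a phosphoglycerate dehydrogenase, and *CG11899*, a phosphoserine aminotransferase, catalyse the steps before *aay* and had log2 fold changes of 0.58 and 0.88. *CG3011* (*Shmt*), which splits serine into glycine and a single carbon, had 1.00, and *CG3999*, a glycine decarboxylase of the cleavage system, had 1.07. *Ahcy13*, which breaks down the product of methyl transfer, had 0.46. Of the 3 members that were lower in shocked heads, none had an unadjusted p under 0.05: *Ts*, the thymidylate synthase, had -0.34, *CG8665*, a formyltetrahydrofolate dehydrogenase, -0.093, and *Cbs*, the cystathionine beta-synthase, -0.036.

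*Gnmt*, the glycine N-methyltransferase that uses up S-adenosylmethionine, had the largest difference of the list. It lay at 11.8, 94.5 and 207 CPM (lowest, median and highest) in naive and at 106, 335 and 1110 CPM in shocked heads. The top value was that of shocked replicate 5, and naive replicates 3, 4 and 5 lay inside the shocked range. The log2 fold change was 1.92 (SE 0.58, adjusted p = 0.206, edgeR), and it was 1.33 with shocked replicates 5 and 6 left out together.

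The purine list held 13 tested genes of 14, and 12 were higher in shocked heads. The median log2 fold change was 0.51, 8 members had an unadjusted p under 0.05, all higher, and none passed over all genes. The enzymes of the linear route to inosine monophosphate made up 7 of the 8. *ade2* (*Pfas*), the formylglycinamidine synthase, lay at 45.8, 55.3 and 73.8 CPM in naive and at 59.2, 89.6 and 188 CPM in shocked heads (lowest, median and highest). Shocked replicates 5 and 6 were the top 2 heads, and 2 shocked heads lay within the naive range. Its log2 fold change was 0.84 (SE 0.22, adjusted p = 0.166, edgeR).

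*CG11089*, which carries out the last 2 steps of that route, lay at 61.6, 78.6 and 187 CPM in naive and at 88.9, 198 and 419 CPM in shocked heads. Replicates 5 and 6 were again the highest of the shocked heads, and naive replicate 6 lay above 4 of the 8 shocked heads. The log2 fold change was 1.15 (SE 0.31, adjusted p = 0.175, edgeR). *AdSL*, the adenylosuccinate lyase, had 0.68 (SE 0.20, adjusted p = 0.206).

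Named after their values were seen, *ade5* (*Paics*) had a log2 fold change of 1.02, *ade3* (*Gart*) 0.74, *Prat2* and *Prat*, both amidotransferases of the first step, 0.59 and 0.51, and *ry*, the xanthine dehydrogenase of purine breakdown, 0.46. Smaller differences were found for some enzymes of the branches from inosine monophosphate towards GMP and AMP, none with an unadjusted p under 0.05. *bur*, the GMP synthetase, had 0.11, *ras*, the inosine monophosphate dehydrogenase, 0.074, and *AdSS*, the adenylosuccinate synthetase, 0.084. The 1 list member that was lower in shocked heads had -0.42, without an unadjusted p under 0.05.

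The heads highest for these 2 lists were also highest for fat body transcripts. The mean log2 CPM of the one-carbon and serine members was highest in shocked replicates 5 and 6, at 6.47 and 6.33, against 4.71 to 5.61 in naive heads. The mean of the 7 tested fat body genes was highest in the same 2 heads, at 8.89 and 9.44, and lowest in naive replicate 7, at 5.87. The summed level of the fat body list ranged from 1470 to 9090 CPM in naive and from 3380 to 12000 CPM in shocked heads. All 7 tested fat body genes were higher in shocked heads, with a median log2 fold change of 0.44 (0.71 without naive replicate 4), and none had an unadjusted p under 0.05.

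With the fat body mean as a covariate, an alternative chosen after seeing the data, the median log2 fold change was 0.125 for the one-carbon and serine list and 0.125 for the purine list. With shocked replicates 5 and 6 left out together the medians were 0.32 and 0.29, with 3 members of each list at an unadjusted p under 0.05, and without replicate 5 alone 5 purine members were. With 1 library left out at a time they stayed between 0.45 and 0.68 and between 0.39 and 0.58. *Nmdmc* and *asparagine-synthetase* had log2 fold changes of 1.56 and 0.57 beside the covariate, with adjusted p of 0.132 and 0.106 (edgeR), so neither passed. The fat body mean was itself 0.72 higher in shocked heads on the log2 scale. Here and below, fits with this covariate therefore cannot tell a difference in fat body content from one that goes with shock.

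**Figure D2:**
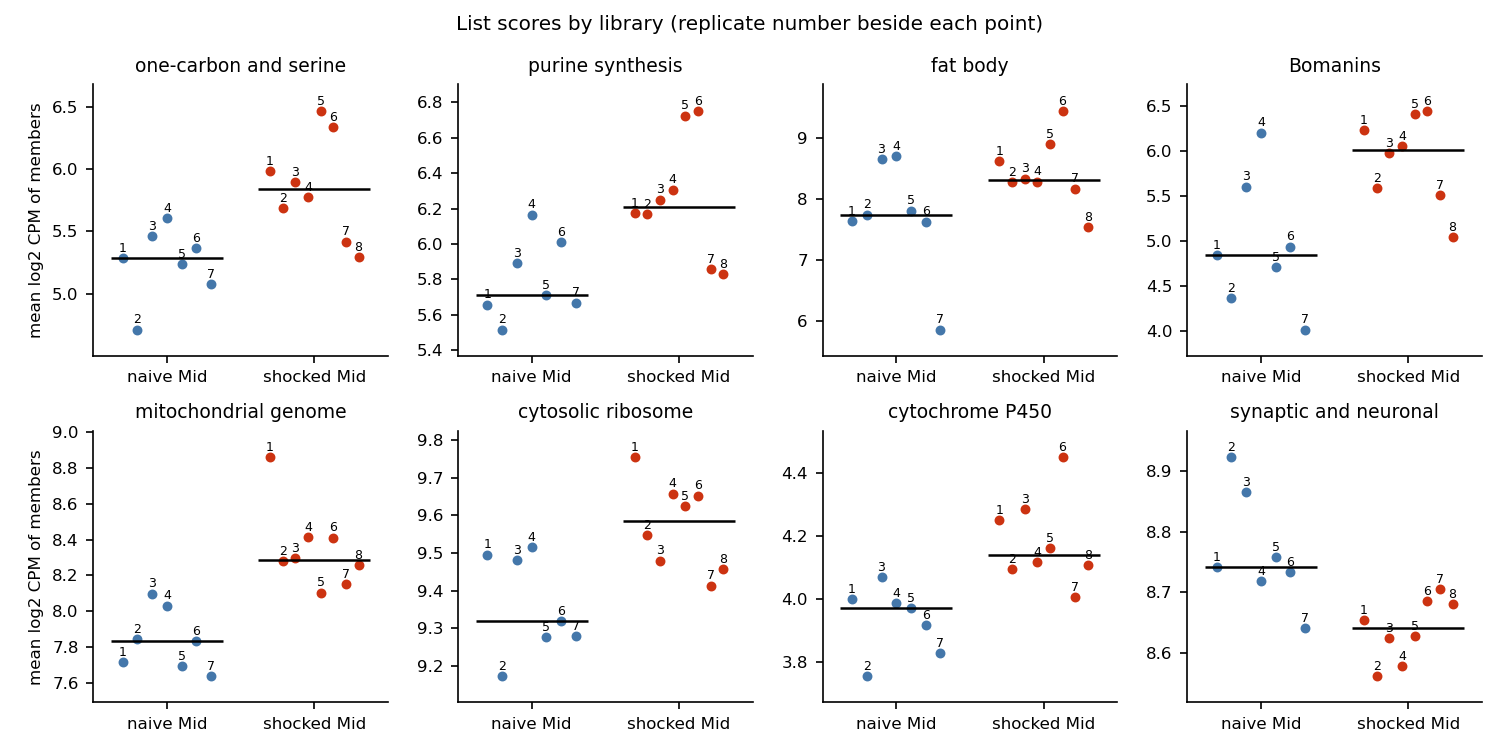
Mean log2 CPM of the tested members of 8 gene lists in each naive Mid and shocked Mid head; numbers are replicate numbers and lines are group medians. Shocked replicates 5 and 6 have the 2 highest one-carbon, purine and fat body means (6.47 and 6.33, 6.73 and 6.75, 8.89 and 9.44), whereas shocked replicate 1 has the highest mitochondrial genome and ribosomal means, at 8.86 and 9.76.

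The integrated and endoplasmic reticulum stress list held 14 tested genes, with a median log2 fold change of 0.0083, and *asparagine-synthetase* was its 1 member that rose. RNA levels of the sensors and factors of the pathways did not share its difference: *crc* had a log2 fold change of -0.00068, the kinases *PEK* and *Gcn2* -0.054 and -0.042, and *Ire1* -0.045. As *crc* is translated when the response is active, these RNA levels do not measure that activity, which was not tested. *Gp93*, an Hsp90-type chaperone of the endoplasmic reticulum, lay at 118, 141 and 159 CPM in naive and at 140, 193 and 303 CPM in shocked heads. Shocked replicates 4 and 7 were its highest, and it did not pass (log2 fold change 0.52, SE 0.18, adjusted p = 0.24, edgeR). *Hsc70-3*, the BiP chaperone, had 0.23 (SE 0.11, adjusted p = 0.369). Of 20 tRNA synthetase genes, 1 had an unadjusted p under 0.05, and their median was 0.049.

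Among the genes with the smallest p that did not pass, *sut1*, a sugar transporter, lay at 10.5, 12.0 and 18.1 CPM in naive and at 18.7, 25.8 and 36.9 CPM in shocked heads. Its groups did not overlap, although naive replicate 4 came within 1 CPM of the lowest shocked head. The log2 fold change was 1.09 (SE 0.22, adjusted p = 0.063, edgeR), and it passed in 9 of 26 alternatives. *Eip71CD* (*MsrA*), which repairs oxidised methionine, had 1.00 (SE 0.22, adjusted p = 0.105), and its shocked values ranged from 84.4 to 316 CPM against 44.5 to 97.8 CPM. *Srp68*, a subunit of the signal recognition particle, had 0.56 (SE 0.13, adjusted p = 0.112). *Sulf1*, which trims sulfate from heparan sulfate chains, had 0.30 (SE 0.066, adjusted p = 0.105), while the 11 tested genes of the heparan sulfate list had a median of -0.013.

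The remaining higher genes of the smallest p were *CG10516* (0.77), *CG12091* (0.25), *CG15739* (0.55), *CG1441* (0.70), *Ugt35b* (0.63) and *CR43730* (0.41), with adjusted p from 0.105 to 0.135. Besides *Vmat*, *zye*, *TwdlT* and *Hsp70Bc*, given below, the lower genes of the smallest p were *CG14669*, *CG31708*, *pod1*, *CG14186*, *Rb97D*, *CR44165*, *Dscam4* and *east*. None of these lower genes passed (edgeR). *CG14669* lay at 102 to 114 CPM in naive and at 85.1 to 98.2 CPM in shocked heads. Its log2 fold change was -0.29 (SE 0.071, adjusted p = 0.142, edgeR). It passed in the fit of the Mid libraries alone, with an adjusted p of 0.0199. *CG14186* passed with DESeq2 (-0.26, adjusted p = 0.0436) and *CR44165* with limma voom and quality weights (-0.84, adjusted p = 0.0206). Exons of the antisense RNA *CR43730* share 73.6% of their length with *JhI-26* on the other strand, and the strand setting of the counting is not given, so reads of the pair cannot be told apart. The same limit holds for *CR44165*, which shares 41% of its exonic length with *CG15909* on the other strand.

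Transcripts of the mitochondrial genome were higher in shocked heads for 15 of 16 tested genes. Their median log2 fold change was 0.46, and 7 had an unadjusted p under 0.05, all higher, but none passed over all genes. Their summed level, which also holds genes other than mRNAs, was not higher, with a median of 81800 CPM in naive and 79000 CPM in shocked heads. It ranged from 62100 to 91600 CPM in naive and from 67500 to 130000 CPM in shocked heads. The mRNAs alone took a higher share of counts in shocked heads, with a median of 2.84% against 2.21% in naive heads. *mt:ND5*, a subunit of respiratory complex I, lay at 499, 565 and 717 CPM in naive and at 813, 914 and 1550 CPM in shocked heads (lowest, median and highest). The groups did not overlap, and shocked replicate 1 stood above the other shocked heads, which reached 1020 CPM. The log2 fold change was 0.74 (SE 0.24, adjusted p = 0.209, edgeR), and the adjusted p was 0.022 in the fit of the 15 Mid libraries alone.

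*mt:ND2*, another complex I subunit, lay at 12.5, 16.7 and 22.3 CPM in naive and at 25.8, 49.4 and 74.2 CPM in shocked heads, also without overlap. Its log2 fold change was 1.43 (SE 0.37, adjusted p = 0.166, edgeR). In the fit of the 15 Mid libraries alone the SE was 0.19 and the adjusted p 0.0038. The fit of all 37 libraries takes its spread from the other groups too, where shocked High replicates 3 and 4 lay at 1.86 and 7.86 CPM. Whether those 2 heads widened the SE was not tested. *mt:CoII*, a subunit of cytochrome oxidase named after its values were seen, did not overlap either, with 2610 to 3070 CPM against 3250 to 5550 CPM and a log2 fold change of 0.45. Shocked replicate 1 was the highest of the 15 heads for 12 of the 16 genes. Without it the median was 0.37 and 3 genes had an unadjusted p under 0.05. Beside the fat body covariate the median was 0.42, and with shocked replicates 5 and 6 left out it was 0.48.

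Nuclear genes of oxidative phosphorylation differed by less, with 64 of 69 tested genes higher, a median log2 fold change of 0.11 and 7 at an unadjusted p under 0.05, all higher. With 1 library left out, 4 to 22 were, with the fewest without naive replicate 2. *CG3214* (*ND-B17.2*), a complex I subunit, had 0.26 (SE 0.075, adjusted p = 0.206, edgeR), and *CoIV*, a cytochrome oxidase subunit, 0.26 (SE 0.084, adjusted p = 0.209). Genes of mitochondrial ribosomal proteins had a median of 0.018 over 72 genes, and 1 of them had an unadjusted p under 0.05. Those of the vacuolar ATPase had a median of -0.031 over 21 genes.

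All 82 tested genes of cytosolic ribosomal proteins were higher in shocked heads, with a median log2 fold change of 0.21, and 38 had an unadjusted p under 0.05. None passed. *RpS28b* lay at 334, 443 and 548 CPM in naive and at 485, 537 and 727 CPM in shocked heads, and its log2 fold change was 0.37 (SE 0.11, adjusted p = 0.206, edgeR). *RpL22* had 0.38 (SE 0.12) and *RpS14b*, which has a near-identical copy in *RpS14a* so that its counts are uncertain, 0.31 (SE 0.095). The counts of *RpL22* are uncertain too, as it shares 34.3% of its exonic length with *lncRNA:CR42491* on the same strand. Naive replicate 2 was the lowest of the 15 heads for 47 of the 82 genes and shocked replicate 1 the highest for 44. Without naive replicate 2, 14 had an unadjusted p under 0.05. Of 31 proteasome genes, 30 were higher, with a median of 0.15 and 8 at an unadjusted p under 0.05, led by *Rpt2* (0.25, SE 0.091, adjusted p = 0.257). Without naive replicate 6, 3 of them had an unadjusted p under 0.05.

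**Figure D3:**
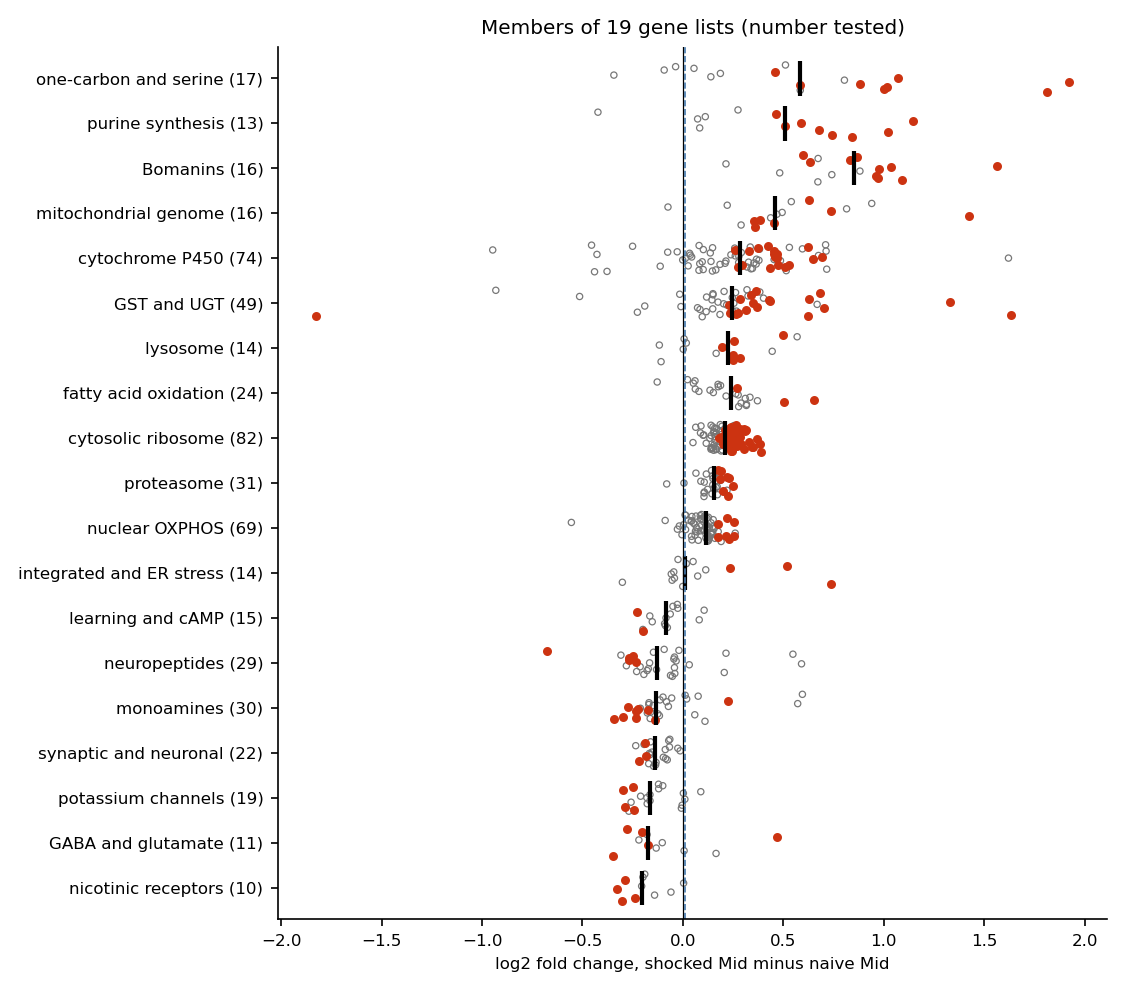
Log2 fold change (shocked Mid minus naive Mid) of each tested member of 19 gene lists; filled points have an unadjusted p under 0.05, thick bars are list medians and the dashed line is the median of all tested genes at 0.012. Medians run from 0.85 for the Bomanins to -0.20 for the nicotinic receptors, and the ribosomal members lie close together.

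Lists of neuronal genes had medians below that of all tested genes. Of 22 synaptic and general neuronal genes, all 22 were lower in shocked heads, with a median log2 fold change of -0.14. In that list 3 had an unadjusted p under 0.05 (1 without naive replicate 2), and none fell by the adjusted test. *Rab3*, a small GTPase of synaptic vesicles, lay at 371, 391 and 430 CPM in naive and at 323, 343 and 367 CPM in shocked heads, without overlap (log2 fold change -0.18, SE 0.073, adjusted p = 0.285, edgeR). *brp*, the scaffold of the active zone, had -0.22 (SE 0.10, adjusted p = 0.359), and *futsch*, a microtubule-associated protein, -0.19 (SE 0.083, adjusted p = 0.328).

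Ion channels and receptors were mostly lower as well. Of 19 potassium channel genes, 16 were lower, with a median of -0.16 and 4 at an unadjusted p under 0.05. *Shab*, a delayed rectifier, lay at 500, 522 and 543 CPM in naive and at 394, 442 and 480 CPM in shocked heads, without overlap, and the log2 fold change was -0.24 (SE 0.094, adjusted p = 0.28, edgeR). *Hk*, the beta subunit of the Shaker channel, had -0.30 (SE 0.094) and *Shaw* -0.29 (SE 0.094), both with an adjusted p of 0.209.

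The 10 nicotinic acetylcholine receptor subunits, which carry fast excitation in the fly brain, had a median of -0.20, and 9 of them were lower. Of these, 4 had an unadjusted p under 0.05, and 1 did without naive replicate 2. *nAChRbeta1* lay at 633, 654 and 726 CPM in naive and at 529, 558 and 628 CPM in shocked heads, with no overlap (log2 fold change -0.24, SE 0.09, adjusted p = 0.274, edgeR). *Rdl*, the GABA-gated chloride channel, lay at 387, 421 and 524 CPM in naive and at 315, 335 and 382 CPM in shocked heads, and its groups did not overlap. Its log2 fold change was -0.35 (SE 0.12, adjusted p = 0.23). The NMDA receptor subunits *Nmdar1* and *Nmdar2* had -0.20 and -0.28, with adjusted p of 0.23 and 0.282. Within the list of GABA and glutamate genes *CG1732* (*Gat*), the GABA transporter, named after its value was seen, was the 1 member with an unadjusted p under 0.05 that was higher, at 0.47.

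The monoamine list held 30 tested genes, of which 22 were lower, with a median of -0.13. Unadjusted p values under 0.05 were found for 8 lower and 1 higher member, and for 5 lower ones without naive replicate 2. *Vmat*, which loads monoamines into vesicles, lay at 339, 370 and 419 CPM in naive and at 257, 286 and 345 CPM in shocked heads. Shocked replicates 7 and 8 were the 2 that reached into the naive range, and the log2 fold change was -0.34 (SE 0.073, adjusted p = 0.0888, edgeR). *Trh*, a tryptophan hydroxylase, had -0.30 (SE 0.10) and the octopamine receptor *Oamb* -0.22 (SE 0.084). *Vmat* shares 26.2% of its exonic length with *CG13330* on the other strand, and reads of the pair cannot be told apart.

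Of 29 neuropeptide genes, 24 were lower, with a median of -0.13 and 5 at an unadjusted p under 0.05, among them *CNMa* (-0.68, SE 0.28) and *Crz* (-0.23, SE 0.098). Without shocked replicate 5, 2 had one, and without naive replicate 7 the median was -0.080. Of 9 activity-regulated genes, 7 were lower, with a median of -0.175 and 5 at an unadjusted p under 0.05. *Hr38*, a nuclear receptor induced by neuronal firing, lay at 41.5, 67.9 and 82.6 CPM in naive and at 29.3, 45.9 and 64.7 CPM in shocked heads, with overlap (log2 fold change -0.50, SE 0.18, adjusted p = 0.24, edgeR). *sr*, a transcription factor of the same class, had -0.46 (SE 0.14, adjusted p = 0.206). Genes of learning and cAMP signalling had a median of -0.084 over 15 genes, 13 of them lower, and of -0.039 without naive replicate 2.

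Exonic length went with the sign of the difference. In the longest of 5 equal classes of exonic length (4071 bases or more), 24.9% had a log2 fold change above 0 and the median was -0.087. In the shortest class (1089 bases or less), 63.8% were above 0 and the median was 0.078. The median exonic length was 6740 bases in the synaptic list, 5103 in the potassium channel list and 5914 in the nicotinic list, but 1202 in the neuropeptide list. It was 921.5 in the ribosomal list and 2047 over all tested genes.

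The trend differed between single heads. For the longest class, the median deviation from the mean of all 37 libraries was above 0 in 6 of 7 naive heads and below 0 in 7 of 8 shocked heads. Naive replicate 2 was the most positive, at 0.12, and shocked replicate 4 the most negative, at -0.125. With each library's length trend removed as an offset, an alternative chosen after seeing the data, the list medians were -0.043 for synaptic, -0.0755 for potassium channel, -0.14 for nicotinic, -0.19 for neuropeptide and 0.14 for cytosolic ribosomal genes. In that setting the one-carbon and purine medians were 0.52 and 0.51.

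**Figure D4:**
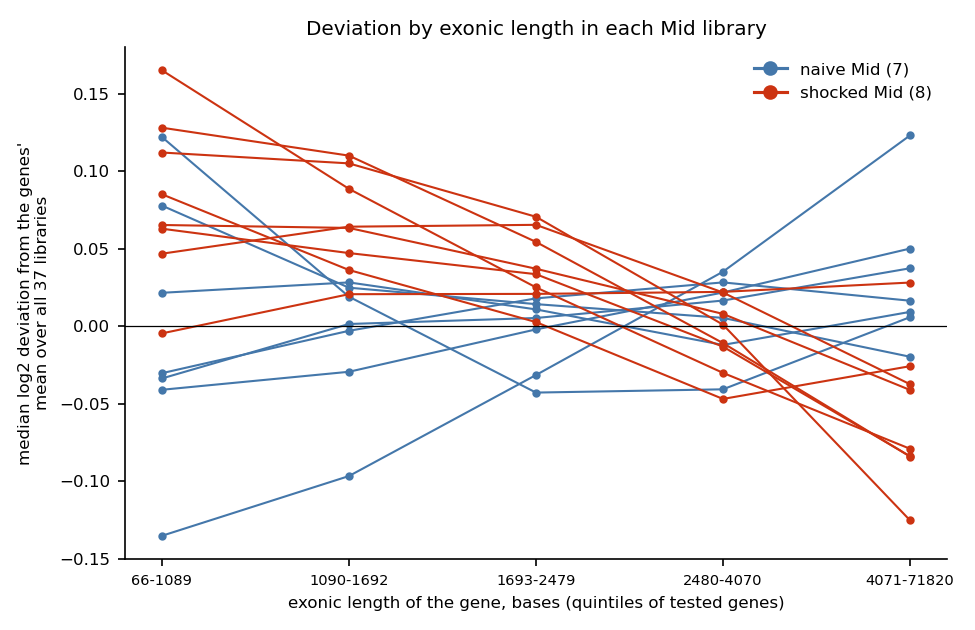
Median log2 deviation from each gene's mean over the 37 libraries, by class of exonic length in bases, with 1 line for each naive Mid (7) and shocked Mid (8) head. In the longest class the naive heads lie between -0.020 and 0.12 and the shocked heads between -0.125 and 0.028.

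Genes whose libraries did not overlap between the groups numbered 44, or 0.428% of those tested, with 12 higher (0.117%) and 32 lower (0.312%) in shocked heads. Of the 32 lower genes, 22 were in the longest class by exonic length. Those with the largest log2 fold changes were *Hsp70Bc*, *CG13708*, *CG13759*, *Rdl* and *CR31451*, and besides *Rdl* they ranged from -0.34 for *CR31451* to -1.31 for *Hsp70Bc*. *Hsp70Bc*, a heat-inducible chaperone gene, was near the lower end of detection, with 1.80 to 3.27 CPM in naive and 0.59 to 1.53 CPM in shocked heads (SE 0.31, adjusted p = 0.129, edgeR). It has near-identical copies, so its counts are uncertain, and the 12 tested heat shock genes had a median of -0.06. Among the 12 higher genes, named after their values were seen, were *CG7414* (*eIF2A*), a translation initiation factor (0.29), and *Rpi*, the ribose-5-phosphate isomerase (0.38).

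Immune genes are given by family. Bomanins, short secreted peptides under Toll control, were higher in shocked heads for all 16 tested genes, with a median log2 fold change of 0.85, and 10 had an unadjusted p under 0.05. *CG43202* (*BomT1*) lay at 1.31, 3.10 and 5.85 CPM in naive and at 4.61, 9.21 and 15.4 CPM in shocked heads. Naive replicate 4 overlapped the 2 lowest shocked heads, and the gene did not pass (log2 fold change 1.56, SE 0.39, adjusted p = 0.145, edgeR). *CG5778* (*BomT3*) had 0.63 (SE 0.18) and *CG5791* (*BomBc3*) 0.83 (SE 0.30). Naive replicates 2 and 7 were the lowest of the 15 heads for 7 and 8 of the 16 genes. Without naive replicate 2, 3 members had an unadjusted p under 0.05, and beside the fat body covariate the median was 0.23 with 2 such members.

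Antimicrobial peptide genes had no stable direction. In the edgeR fit 11 of 13 were lower, with a median of -0.95 (-0.49 without naive replicate 2), whereas in limma voom 9 of 13 were higher, with a median of 0.32, and with quality weights the median was 0.28. The mean log2 CPM of the 13 genes averaged 1.91 in naive and 1.92 in shocked heads. *Def*, the defensin, lay at 21.7, 64.8 and 53.8 CPM in naive replicates 2, 3 and 4, whereas the other naive heads and all shocked heads stayed at or below 2.68 CPM. Its log2 fold change was -4.35 (SE 1.49, adjusted p = 0.23, edgeR), and it was the 1 member with an unadjusted p under 0.05. The summed level of the 13 genes ranged from 13.8 to 1200 CPM in naive and from 19.8 to 566 CPM in shocked heads, so the groups overlapped over most of their range.

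Of the 29 immune recognition and signalling genes, 7 had an unadjusted p under 0.05, all higher, and the median was 0.11. Without naive replicate 2, 4 had one, and without naive replicate 4 the median was 0.22. *SPE*, the protease that activates the Toll ligand, lay at 76.8, 102 and 144 CPM in naive and at 124, 170 and 219 CPM in shocked heads, with overlap through naive replicate 4 (log2 fold change 0.69, SE 0.18, adjusted p = 0.175, edgeR). *grass*, a protease upstream of it, had 0.35 (SE 0.11), and *nec*, a serpin that restrains the cascade, 0.61 (SE 0.20). Turandot and JAK-STAT genes had a median of 0.85, with 10 of 12 higher and none of the higher ones at an unadjusted p under 0.05. That median was 0.52 without shocked replicate 5, 0.37 with no low-count filter (16 genes) and 0.0092 beside the fat body covariate. *hop*, the JAK kinase, was the 1 that was (-0.25, SE 0.079, adjusted p = 0.209).

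Of 74 cytochrome P450 genes, 64 were higher in shocked heads, with a median log2 fold change of 0.28, and 18 had an unadjusted p under 0.05, all higher. *Cyp6a23* lay at 10.6, 14.1 and 15.6 CPM in naive and at 14.3, 17.8 and 24.1 CPM in shocked heads, and its log2 fold change was 0.46 (SE 0.12, adjusted p = 0.166, edgeR). Its groups overlapped slightly. Shocked replicate 6 was the highest of the 15 heads for 28 of the 74 genes. Of 49 glutathione S-transferase and UDP-glycosyltransferase genes, 42 were higher, with a median of 0.25, and unadjusted p values under 0.05 were found for 18 higher and 1 lower gene. Both medians were smaller beside the fat body covariate, at 0.13 for the P450 genes and 0.077 for the transferases.

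*Ugt35b*, a glycosyltransferase, lay at 32.3, 37.9 and 53.2 CPM in naive and at 44.5, 68.7 and 69.6 CPM in shocked heads. Naive replicate 5 was the 1 naive head inside the shocked range (log2 fold change 0.63, SE 0.14, adjusted p = 0.105, edgeR). Antioxidant genes had a median of 0.13 over 13 genes, with *Sod*, the cytosolic superoxide dismutase, at 0.28 (SE 0.095, adjusted p = 0.226) and *Gclc*, which makes glutathione's precursor, at -0.17 (SE 0.062, adjusted p = 0.268).

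Genes of fatty acid oxidation were higher for 23 of 24, with a median of 0.24 and 3 at an unadjusted p under 0.05 (1 without naive replicate 2). *CG12262* (*Mcad*), an acyl-CoA dehydrogenase, shares 92.6% of its exonic length with *CG7457* on the other strand, so its value of 0.65 (SE 0.23, adjusted p = 0.23, edgeR) may hold reads of both. Without shocked replicates 5 and 6 the median of the list was 0.088, and beside the fat body covariate it was 0.036. Lysosomal genes had a median of 0.22 over 14 genes, with 6 at an unadjusted p under 0.05, all higher, led by the hexosaminidase *Hexo1* (0.25, SE 0.079) and the aspartic protease *cathD* (0.28, SE 0.10). Without naive replicate 2, 2 had an unadjusted p under 0.05, and beside the fat body covariate the median was -0.018.

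Among 28 genes of sugar metabolism, 24 were higher, with a median of 0.14. *CG10924* (*Pepck2*), a phosphoenolpyruvate carboxykinase, lay at 17, 30.0 and 59.5 CPM in naive and at 39.8, 91.8 and 126 CPM in shocked heads, with overlap (log2 fold change 1.27, SE 0.35, adjusted p = 0.182, edgeR). *sug*, a transcription factor induced by dietary sugar, lay at 23.4, 38.8 and 58.0 CPM in naive and at 8.09, 15.6 and 45.0 CPM in shocked heads. All shocked heads but replicate 5 were below every naive head (log2 fold change -1.14, SE 0.45, adjusted p = 0.285). *Amy-p*, an amylase gene whose counts are uncertain because *Amy-d* is nearly identical, had 1.75 (SE 0.63, adjusted p = 0.257).

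Of 16 genes of the insulin and FOXO list, 5 were higher, with a median of -0.038. *Ilp6*, an insulin-like peptide of the fat body, was among them at 0.76 (SE 0.32, adjusted p = 0.319, edgeR). Lipid storage genes had a median of 0.16 over 13 genes, with the acyltransferase *mdy* at 0.58 (SE 0.21, adjusted p = 0.265). That median was 0.065 without shocked replicate 5, -0.0020 without shocked replicates 5 and 6, and -0.13 beside the fat body covariate.

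Among photoreceptor genes, the rhodopsins of the inner photoreceptor cells that respond to blue and green light had the smallest p. *Rh5* lay at 382, 503 and 679 CPM in naive and at 570, 764 and 813 CPM in shocked heads, and shocked replicate 6 was the lowest of its group (log2 fold change 0.54, SE 0.16, adjusted p = 0.204, edgeR). *Rh6* had 0.41 (SE 0.14, adjusted p = 0.24), whereas the 26 photoreceptor genes had a median of -0.05 and no other member had an unadjusted p under 0.05. Odorant-binding protein genes were higher for 24 of 28, with a median of 0.32 and 5 at an unadjusted p under 0.05. *Obp19d* lay at 1020, 1270 and 1560 CPM in naive and at 1270, 1860 and 2290 CPM in shocked heads, with overlap (log2 fold change 0.46, SE 0.15, adjusted p = 0.209). *Orco*, the olfactory co-receptor, had 0.84 (SE 0.36, adjusted p = 0.323), and chemoreceptor genes had a median of 0.22 over 44 tested genes (0.14 without naive replicate 7).

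Glial genes had a median of 0.11 over 16 genes, with 5 at an unadjusted p under 0.05, all higher (median 0.055 without shocked replicate 6, 3 genes without naive replicate 7), while *repo*, the glial master regulator, had -0.039. *Tret1-1*, the trehalose transporter of perineurial glia, had 0.47 (SE 0.15, adjusted p = 0.209, edgeR), and *alrm*, an astrocyte gene, 1.12 (SE 0.42, adjusted p = 0.272). Haemocyte genes had a median of -0.20 over 18 genes (-0.10 without naive replicate 1), with the scavenger receptor *crq* as the 1 with an unadjusted p under 0.05, at 0.20 (SE 0.077). Muscle genes had a median of -0.085 over 21 genes, injury genes -0.035 over 17, clock genes -0.037 over 12, hormone response genes -0.086 over 16, cuticle genes 0.058 over 30 and sex-biased genes -0.17 over 10.

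Some of the largest fold changes came from 1 library. *zye*, which encodes a zona pellucida domain protein of epithelia, was at 71.7 CPM in naive replicate 4 and at or below 1.61 CPM in every other Mid head. Its log2 fold change was -4.08 (SE 0.97, adjusted p = 0.129, edgeR), and it was -0.16 without that head. *TwdlT*, a cuticle protein gene, was at 91.1 CPM in the same head and at or below 4.57 CPM in the others, and its log2 fold change of -2.43 became 0.074 without that head. *Act79B*, an actin of adult muscle, was at 194 CPM in shocked replicate 7 and at or below 41.4 CPM elsewhere, and its value of 1.02 became 0.21 without that head.

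The shock difference could be set against that of the High class, the other class with a naive group. No gene passed for the difference between the 2 classes, with a smallest adjusted p of 0.236 (edgeR), while 1265 genes (12.3%) had an unadjusted p under 0.05, and DESeq2 called 3 genes. For *Nmdmc* the High difference minus the Mid difference was -1.56 (SE 0.47, adjusted p = 0.284), and the value of *asparagine-synthetase* was -0.50 (SE 0.20, adjusted p = 0.319). For the lists, the median of the High difference minus the Mid difference was -1.01 for one-carbon and serine and -0.58 for purine genes. It was -0.845 for Bomanins, -0.71 for the mitochondrial genome, -0.34 for cytosolic ribosomal and 0.13 for synaptic genes, against -0.014 over all tested genes. Shocked High replicates 3 and 4 had the lowest mitochondrial genome means, at 5.255 and 6.53. These differences contain the same Mid libraries as the values above, so they are no separate support for them.

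In the other groups *Nmdmc* averaged 23.1 ± 6.23 CPM (SD, n = 7) in naive High, 27.4 ± 9.93 (n = 6) in shocked High and 25.0 ± 8.75 (n = 9) in shocked Low heads, against 27.2 ± 12.7 (n = 7) in naive Mid and 95.9 ± 65.2 (n = 8) in shocked Mid heads. All 22 heads outside the Mid class lay at or below 39.6 CPM, under the lowest shocked Mid head. *asparagine-synthetase* averaged 72.8 ± 18.2, 85.8 ± 22.8 and 80.0 ± 16.2 CPM in the same 3 groups, against 70.0 ± 9.38 in naive Mid and 117 ± 11.2 in shocked Mid heads. One shocked High head, at 128 CPM, and one shocked Low head, at 112 CPM, lay within its shocked Mid range. *Vmat* averaged 355 ± 29.4, 335 ± 24.0 and 346 ± 35.8 CPM in those groups, against 377 ± 33.5 in naive Mid and 297 ± 33.3 in shocked Mid heads. Some naive High heads reached the list means of shocked Mid heads. One-carbon means of naive High replicates 1, 2 and 5 were 5.73, 5.76 and 5.88, within the shocked Mid range of 5.30 to 6.47. Naive High replicate 1 had a ribosomal mean of 9.79, above every shocked Mid head, and a synaptic mean of 8.43, below every shocked Mid head.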

How the data were processed

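Per the series' design text and the labels' protocols, total RNA of individual heads was selected with oligo dT beads and sequenced, reads were trimmed with Trimmomatic and aligned to dm6 with STAR, alignments with a mapping quality below 8 or not primary were removed, and reads on exons were counted with HTSeq-count. Neither versions nor a strand setting are stated there, and wording in the labels that calls the assay nuclear RNA-seq was left unresolved. The deposited values are raw read counts for 17559 genes, per the file headers; the authors' DESeq2 table was not used. Columns of counts were found for 37 of the 39 labelled samples, and 2 shocked High samples were not analysed here. A further 2 columns that matched no sample were not used. Each library is 1 fly, and all labels give 1 batch date.

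Low genes were removed by edgeR's filterByExpr with the 5 groups (10272 left), and libraries were scaled by TMM. The 37 libraries then entered 1 quasi-likelihood fit with a term per group (edgeR 4.0.16, R 4.3.3), and shocked Mid minus naive Mid was tested with Benjamini-Hochberg adjustment at 0.05. CPM are TMM-scaled, and log2 CPM used a prior count of 2. The biological coefficient of variation was 0.216. Alternatives used DESeq2 1.42.0 and limma 3.58.1. On simulated counts of the same design, with 10180 genes tested, the test recovered 60.8% of 97 genes changed by a log2 fold change of 0.5 and 78% of 100 changed by 1, with 8 false calls among 145. No library was a copy of another (chi-square per gene between pairs of a group 7.681 to 69.7).

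The 44 gene lists (1454 genes, 1067 tested), the libraries compared and the rules below were chosen with earlier results of these data known. Lists are described by counts and medians and were not tested as sets. Named genes were those passing, the 12 higher and 12 lower of smallest p, the 5 higher and 5 lower non-overlapping genes of largest fold change, and up to 3 members of smallest unadjusted p per list. Positions and exonic lengths are from Ensembl release 115 in dm6 coordinates; 17253 of the 17559 IDs were in it, and 220 of the 306 retired IDs were matched by symbol. Of the 123 named genes, 44 share exonic bases with another gene. No sequences are shown because no table of them was at hand. Figures were drawn with matplotlib 3.10.9 on Python 3.11.15.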

Additional observations from a re-analysis of the deposited data

Results flagged for a closer look

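In 246 groups of values (each named gene in the naive Mid and in the shocked Mid heads), 32 held 1 library far from the others by Dixon's criterion at the 95% level, in 31 genes. Chance flags about 1 in 20 groups of independent, normally distributed values. The values here were CPM without a log scale, of genes chosen partly by their p or fold change. The count of 32 is therefore no measure of an excess over that rate. By library, the distant values numbered 7 in naive replicate 4, 7 in shocked replicate 6, 5 in shocked replicate 1, 5 in shocked replicate 5, 4 in naive replicate 2, and 1 each in naive replicates 6 and 7 and shocked replicates 4 and 7. All values are in CPM.

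In naive replicate 4 the high values were those of the cuticle and epithelial genes *zye* (71.7), *TwdlT* (91.1) and *Lcp65Ac* (8.36), of *sut1* (18.1), the Bomanin *CG5791* (61.7), the amylase *Amy-p* (9.05) and the scavenger receptor *crq* (193). In shocked replicate 6 the high values were *CG10516* (66.1), *east* (124), the acyl-CoA dehydrogenase *CG12262* (533), the lipase *Lip4* (148) and *nAChRalpha1* (100), and the low ones *Rh5* (570) and *Atg1* (104), a kinase that starts autophagy. Shocked replicate 5 was high for *Gnmt* (1110), *Tret1-1* (736), *Gclc* (144), *Obp44a* (1300) and *sug* (45.0).

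Shocked replicate 1 was high for *mt:ND5* (1550), *mt:ND4* (1220), the complex I gene *CG3214* (214), *ATPsyn-Cf6* (351) and *RpS14b* (396), so 4 of its 5 distant values were genes of the respiratory chain or ATP synthase. Naive replicate 2 was low for *CG3214* (117), *hop* (32.9) and *Sod* (383) and high for *Rdl* (524). The remaining distant values were *aay* at 401 in naive replicate 6, *Yp1*, a yolk protein gene, at 77.6 in naive replicate 7, *CG13708* at 1.42, the low end, in shocked replicate 4, and *Act79B* at 194 in shocked replicate 7. *Yp1* shares 54.3% of its exonic length with *asRNA:CR45601* on the other strand, and reads of the pair cannot be told apart.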

How the results depend on the processing

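The count of 2 called genes depended on the processing. It was 2 with RLE size factors and with limma voom, 3 with the length-trend offset, 4 without a low-count filter, 8 with limma voom and quality weights, 21 with DESeq2, 14 in the Mid libraries alone and 1 with the total count as a covariate. It was 0 beside the fat body covariate and 0 with shocked replicates 5 and 6 left out together; with each of the 15 libraries left out it ranged from 0 to 6. *Nmdmc* and *asparagine-synthetase* each passed in 17 of 26 alternatives. Calls among list members (2) became 8 with DESeq2, 5 with quality weights, 1 with the total count, 6 in the Mid libraries alone, 0 with the fat body score, 0 without shocked replicates 5 and 6, and 0 to 4 with 1 library left out. Genes without overlap (44) numbered 83 without shocked replicates 5 and 6 and 53 to 93 with 1 library left out, where fewer libraries have to be separated. For the difference between classes (0), DESeq2 called 3 and limma voom with quality weights 2. The sign turned for *TwdlT*, at 0.045 (DESeq2) and 0.074 (without naive replicate 4; its range over single omissions was -2.63 to 0.074), and *futsch*, at 0.0024 (length-trend offset). Over all alternatives, values of named genes kept their sign and side of the threshold 3107 times, newly passed 63 times and no longer passed 18 times, and list medians moved by more than the spread between replicates 27 times. The antimicrobial peptide median (-0.95) turned to 0.32 with limma voom and 0.28 with quality weights. The length-trend offset, the fat body score and the joint omission were chosen after seeing the data. Where no value above shows the cause, the cause was not tested.

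Whether the replicate numbers pair the libraries was not settled. Same-number correlations of deviations ran from -0.031 to 0.138, and 1 of 7 numbers correlated best with its own partner. With the replicate number as a block in the Mid libraries alone, 88 genes were called, 27 of them list members. Without the block, the fit of the Mid libraries alone called 14 genes.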
